A study of Mus musculus with 6 samples.

Results

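Keratins of luminal and basal mammary epithelium were examined together with p63 in mammary fat pads of mice without Rarb, the gene of a nuclear receptor for retinoic acid. The 9 genes were Krt7, Krt8, Krt18 and Krt19 (luminal), Krt5, Krt14, Krt17 and Trp63 (basal), and Krt15, which was placed in neither class. A probe set was taken when its deposited gene symbol was exactly that of a member or the older name of the same keratin, and no older name occurred. This gave 15 of 45037 probe sets, naming 9 of 20519 genes. The luminal genes had 4 probe sets and the basal genes 10.

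RNA came from 3 Rarb -/- samples (called Rarb-null) and 3 samples of Rarb +/+ littermates (wild type), each measured on an array. The tissue was the cleared fat pad of the mammary gland, labelled as stroma, at an age of 4 weeks. A note attached to all 6 samples names ErbB2 without saying whether a transgene was present, so it holds for both genotypes alike. The sources used here give neither the strain nor how the pads were cleared, nor whether an array holds 1 mouse or several, so a p-value reflects only how far these arrays spread.

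Keratins build the intermediate filaments of epithelial cells, and each filament pairs an acidic type I keratin with a basic type II keratin. In the mouse mammary gland the inner, luminal cells are known for Krt8 and Krt18 and the outer, basal or myoepithelial cells for Krt5 and Krt14. Trp63 encodes p63, a transcription factor of the p53 family that basal cells of stratified and glandular epithelia need. A cleared pad is by definition one whose epithelium has been removed, and the fat and connective tissue that remain are not known for these keratins.

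Signal is the deposited log2 value made with RMA, and 1 unit is a 2-fold difference. Array medians lay between 6.78 and 6.85. Epithelial signal was present on all 6 arrays despite the label. Here and below the values of a group are given in the order of its replicates. Epcam, a surface protein of epithelial cells, read 13.46, 13.46 and 13.30 on Rarb-null arrays and 12.85, 13.61 and 12.71 on wild-type arrays. Krt18 was at 11.43 or more on every array. The defining genes of the labelled tissue were present too: the adipocyte genes Cfd and Lpl read at least 14.67 on every array, and the collagen gene Col3a1 and the proteoglycan gene Dcn at least 14.16. In such whole-tissue RNA, fewer epithelial cells and less RNA per cell cannot be told apart. Rarb itself was not lower on Rarb-null arrays, at 6.50, 6.61 and 7.41 against 6.95, 6.01 and 6.65 on wild-type arrays. The sources used here do not say whether its probe set lies in the deleted part, so it checks nothing about the labels.

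Promoter sequence is shown for Krt8 and Krt18, which pair in 1 filament and lie next to each other on chromosome 15, and for the basal keratin Krt5 beside them. Each run is the 250 bases before the RefSeq start of the gene (GRCm38.p6), 5′ to 3′ on the gene's strand. Krt8 lies at chr15:102004343-102004592 on the minus strand, Krt18 at chr15:102027966-102028215 on the plus strand and Krt5 at chr15:101712906-101713155 on the minus strand. The coordinates come from the sequence table, and the sources used here name no build for the arrays. Capitals mark AGGTCA, the half-site that retinoic acid receptors bind in pairs, and ATAAAA, a form of the TATA box. The motif TATAAA and a paired site, AGNTCA repeated with 5 bases between, were also searched, all on both strands. A TATAAA match can overlap an ATAAAA match, and both were then counted.
Krt8: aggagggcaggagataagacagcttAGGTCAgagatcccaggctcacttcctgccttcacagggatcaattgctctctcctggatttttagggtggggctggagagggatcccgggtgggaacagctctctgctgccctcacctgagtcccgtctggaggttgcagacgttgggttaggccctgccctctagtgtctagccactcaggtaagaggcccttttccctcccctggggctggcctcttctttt
Krt18: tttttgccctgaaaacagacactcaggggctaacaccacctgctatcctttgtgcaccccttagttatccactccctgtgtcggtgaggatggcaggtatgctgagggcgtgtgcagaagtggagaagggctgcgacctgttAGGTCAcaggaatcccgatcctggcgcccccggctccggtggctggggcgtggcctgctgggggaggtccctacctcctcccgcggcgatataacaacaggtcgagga
Krt5: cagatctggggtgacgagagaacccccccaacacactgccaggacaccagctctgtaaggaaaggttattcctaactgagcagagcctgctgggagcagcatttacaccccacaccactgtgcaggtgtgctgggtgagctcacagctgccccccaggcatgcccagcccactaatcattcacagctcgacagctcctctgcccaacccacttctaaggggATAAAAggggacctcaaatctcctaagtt

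The Krt8 window holds AGGTCA 225 bases before the start and the Krt18 window 108 bases before it, both on the gene's strand. Of 32851 promoter windows of the same length in the table, 14.0% hold AGGTCA. The Krt5 window holds ATAAAA 29 bases before the start, a motif found in 17.0% of windows, and the Krt7 window holds it 7 bases before the start. The paired site was in 0.198% of windows and TATAAA in 12.4%, and neither was in these 4 windows. The listed start of Krt14 lies 1480 bases inside the gene, so its window is not shown. These matches describe the letters only.

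No member differed between genotypes beyond the spread of the arrays in limma. At an adjusted p under 0.05 it called 0 of the 15 probe sets, as it did 0% of all probe sets, and 0 had an unadjusted p under 0.05, against 5.22% of all. The groups overlapped at every one of the 15, while they did not overlap at 10.4% of all probe sets. Adjusted p in limma ran from 0.927 for Krt19 to 0.996 for a dim Krt14 probe set. The mean was higher on Rarb-null arrays at 10 probe sets and lower at 5, where 50.0% of all probe sets had a higher mean. All 15 intervals of the difference included 0, and 8 excluded a 2-fold difference either way. Each gene is described below by its brightest probe set, taken over the 6 arrays, and then by any others. At the 9 brightest probe sets the difference of means was smaller than the pooled SD within groups. Of their intervals, only 3 excluded a 2-fold difference either way.

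**Figure D1:**
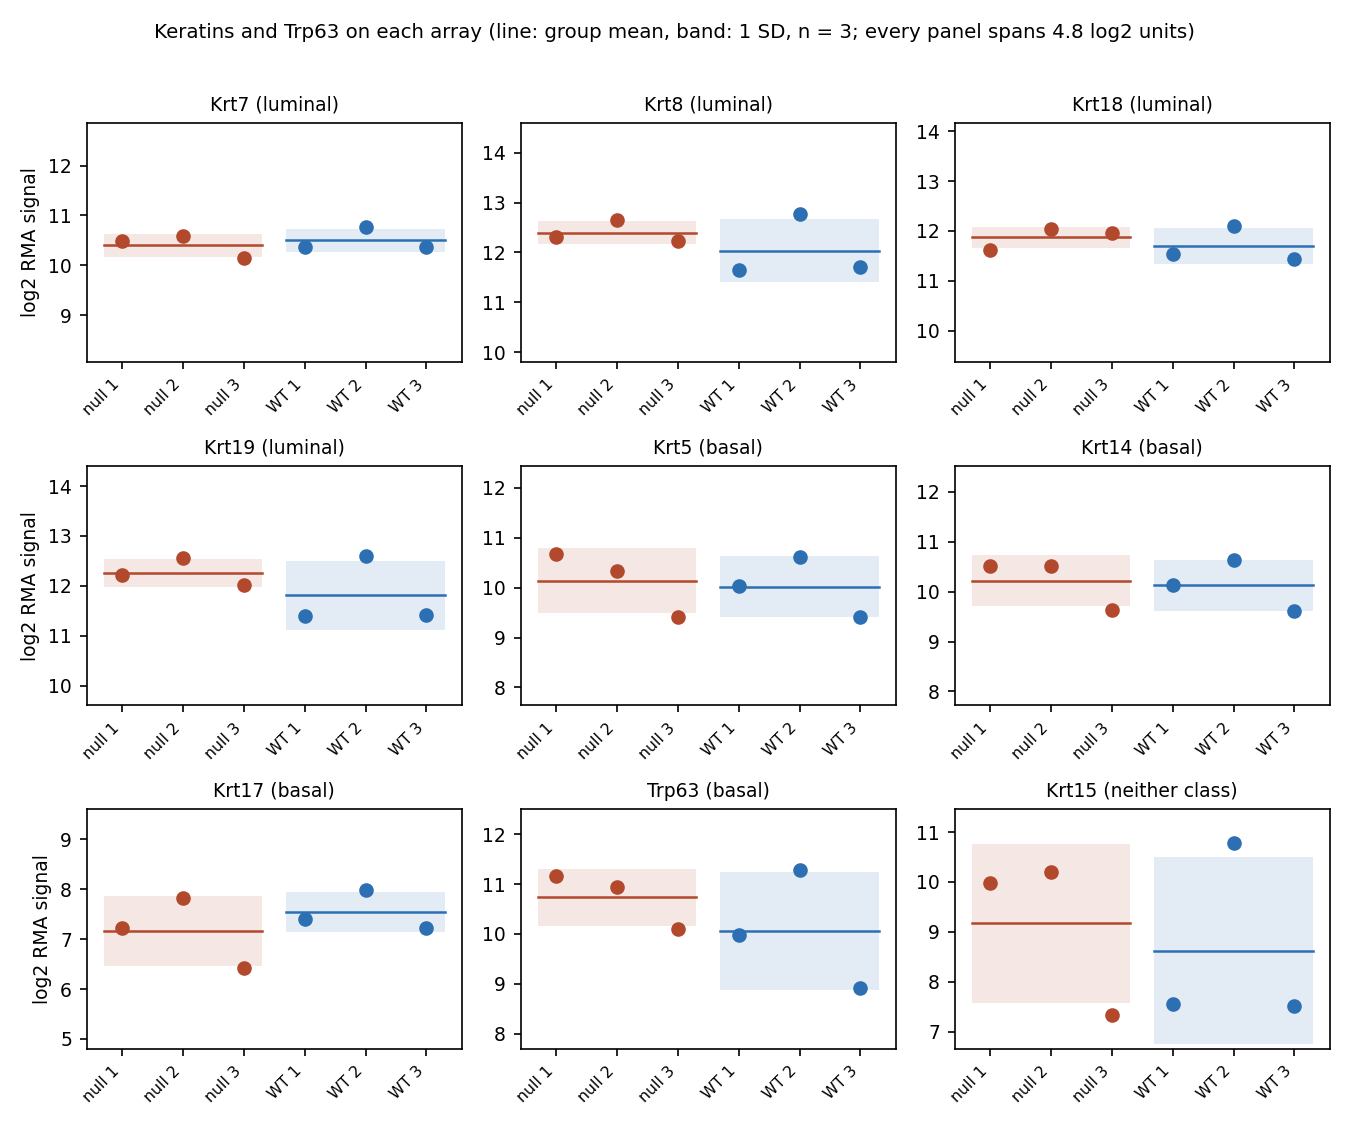
Log2 RMA signal of the brightest probe set of each gene on the 3 Rarb-null arrays (red) and the 3 wild-type arrays (blue), with group mean and 1 SD, at the same scale in every panel. Krt15 spans 3.45 log2 units and Krt7 0.63, and the groups overlap in every panel.

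Among the luminal genes, Krt8, the type II keratin of simple epithelia, read 12.32, 12.65 and 12.22 on Rarb-null arrays and 11.64, 12.76 and 11.71 on wild-type arrays. The Rarb-null arrays lay close together, and of the wild-type arrays replicate 2 was above them all and replicates 1 and 3 below them all. Krt8 averaged 12.40 ± 0.23 on Rarb-null arrays and 12.04 ± 0.63 on wild-type arrays (SD, n = 3 each) and so differed by 0.36 log2 (95% interval -0.35 to 1.07). Leaving out wild-type replicate 2 gave 0.72 log2, and leaving out wild-type replicate 1 or 3 or Rarb-null replicate 2 gave 0.16, 0.20 and 0.23 log2. Krt19, a small type I keratin of simple and ductal epithelia, read 12.21, 12.56 and 12.01 on Rarb-null arrays and 11.40, 12.60 and 11.42 on wild-type arrays. It kept the array order of Krt8, with wild-type replicates 1 and 3 lowest and wild-type replicate 2 highest. Its difference was 0.45 log2 (95% interval -0.34 to 1.24). For Krt19 it was 0.85 log2 on leaving out wild-type replicate 2, and 0.25, 0.26 and 0.30 log2 on leaving out wild-type replicate 1 or 3 or Rarb-null replicate 2. A second Krt8 probe set, which also names 2 similar loci and was therefore not counted, read 12.54, 12.80 and 12.36 on Rarb-null against 11.81, 12.94 and 11.92 on wild-type arrays, in the same array order.

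Krt18, the type I partner of Krt8, read 11.63, 12.03 and 11.96 on Rarb-null arrays and 11.54, 12.11 and 11.43 on wild-type arrays. Its range over the 6 arrays was 0.67 log2, against 1.12 for Krt8, with wild-type replicate 2 again highest and wild-type replicate 3 lowest. The difference was 0.18 log2 (95% interval -0.30 to 0.66). It ranged from 0.048 log2 with wild-type replicate 3 left out to 0.39 log2 with wild-type replicate 2 left out, and only leaving out Rarb-null replicate 3 moved it by less than 1.5 times. Krt7, a type II keratin of glandular ducts, was the steadiest of the 9 genes, at 10.48, 10.59 and 10.14 on Rarb-null and 10.36, 10.77 and 10.37 on wild-type arrays. Rarb-null replicate 3 was its lowest array and wild-type replicate 2 its highest. Its difference of -0.10 log2 had an interval from -0.50 to 0.30, which excludes a 2-fold difference either way, as do those of Krt18 and of the brightest Krt14 probe set.

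Among the basal genes, Trp63 varied most. Its brightest probe set read 11.17, 10.94 and 10.09 on Rarb-null and 9.98, 11.28 and 8.93 on wild-type arrays. The wild-type arrays enclosed the Rarb-null arrays, and wild-type replicate 3 stood lowest by 1.06 log2. Trp63 averaged 10.73 ± 0.57 on Rarb-null arrays and 10.06 ± 1.18 on wild-type arrays (SD, n = 3 each), 0.67 log2 apart (95% interval -0.67 to 2.02), or 1.59-fold. Without wild-type replicate 3 it was 0.10 log2, and without wild-type replicate 2 it was 1.28 log2. The 3 other Trp63 probe sets were steadier. The probe set 1459581_at lay at 6.28 to 6.64 on Rarb-null arrays, against 6.03 to 6.45 for wild type, and differed by 0.15 log2. The remaining pair, 1451876_a_at and 1452027_a_at, had means under 6 and differences of -0.15 and -0.10 log2, opposite in sign to the brightest. The sources used here do not say which p63 isoforms each probe set reads.

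Krt5, the type II keratin of basal cells, read 10.68, 10.34 and 9.41 on Rarb-null and 10.04, 10.62 and 9.41 on wild-type arrays. Replicate 3 was lowest in both genotypes, and the difference was 0.12 log2 (95% interval -0.81 to 1.06). Krt14, its type I partner, read 10.51, 10.52 and 9.64 on Rarb-null and 10.14, 10.63 and 9.61 on wild-type arrays, with the same pair of arrays lowest and a difference of 0.10 log2 (95% interval -0.66 to 0.86). The Krt14 probe set 1460347_at, with a wider range of 1.82 log2, read 9.83, 9.64 and 8.42 on Rarb-null against 9.38, 9.76 and 8.01 on wild-type arrays, so the low arrays were again the same. The dim probe set 1455573_at had a mean of 5.20 and a range of 0.40 log2. A probe set shared by Krt14 and Krt17 was not counted and read 5.86 to 6.23 on Rarb-null and 5.92 to 6.06 on wild-type arrays.

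Krt17, a type I keratin of basal cells that is also induced in stressed epithelium, read 7.23, 7.83 and 6.42 on Rarb-null and 7.41, 7.98 and 7.22 on wild-type arrays. It was the 1 basal gene whose brightest probe set averaged lower, at 7.16 ± 0.71 on Rarb-null against 7.54 ± 0.40 on wild-type arrays (SD, n = 3 each), and Rarb-null replicate 3 was lowest by 0.80 log2. The difference was -0.38 log2 (95% interval -1.23 to 0.47), and it was -0.01 log2 without Rarb-null replicate 3. Its second probe set had a mean of 4.39 and a range of 0.31 log2.

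Krt15, a type I keratin of basal layers in stratified epithelium, had the widest range of the 9 genes. It read 9.97, 10.20 and 7.33 on Rarb-null and 7.55, 10.78 and 7.52 on wild-type arrays. There was no array between 7.55 and 9.97: Rarb-null replicates 1 and 2 and wild-type replicate 2 were high, and the other 3 arrays were low. The span was 3.45 log2, or 11.0-fold, and high and low arrays occurred in both genotypes. The difference of 0.55 log2 therefore had an interval from -1.96 to 3.06, the widest of the 15. The difference was 1.63 log2 without wild-type replicate 2, 1.47 log2 without Rarb-null replicate 3 and -0.0006 log2 without wild-type replicate 3.

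**Figure D2:**
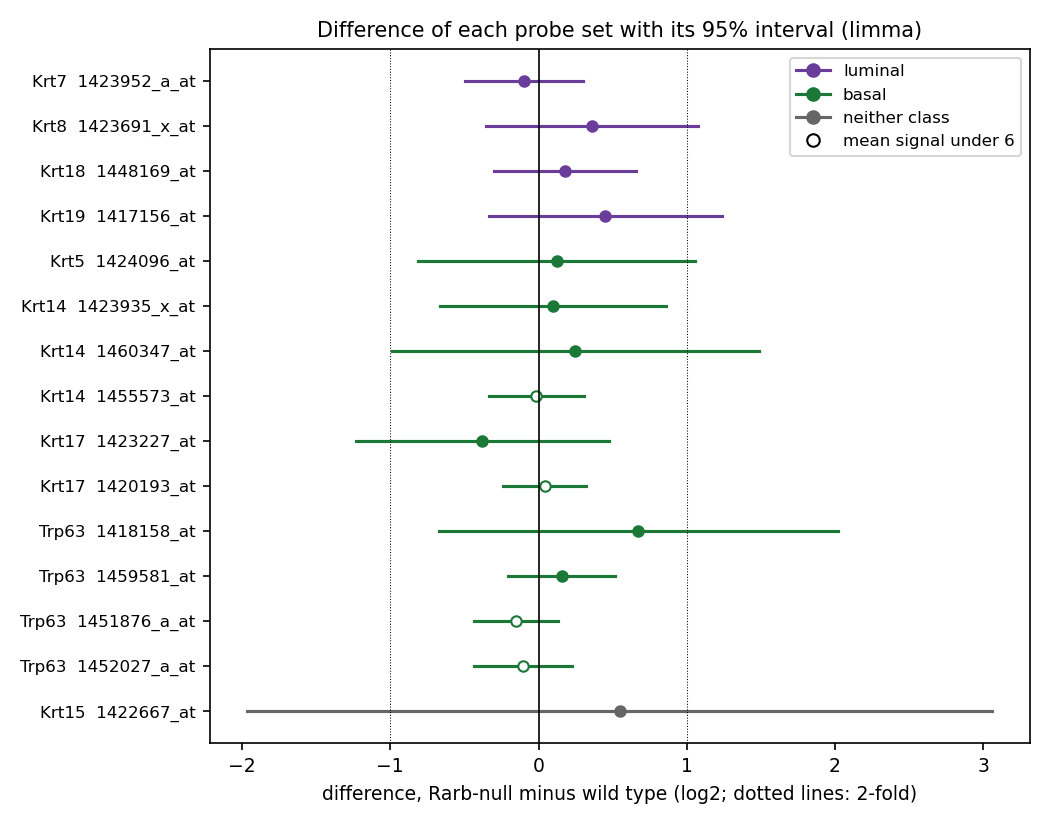
Difference of each of the 15 probe sets, Rarb-null minus wild type in log2 units, with its 95% interval from limma; open points have a mean signal under 6. Every interval includes 0, from Krt15 with the widest to the dim probe sets with narrow ones.

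Within genotypes the brightest probe sets of these genes varied more than most of the array. The pooled SD within groups was above the 94th percentile of all probe sets for 7 of the 9 genes, at 0.47 for Krt8 to 1.74 for Krt15, where the median probe set had 0.17. Krt18 lay at the 82.2nd percentile and Krt7 at the 70.5th. Of the other probe sets, Krt14 1460347_at lay at the 98.9th percentile. The rest, of Krt14, Krt17 and Trp63, lay between the 26.1st and the 61.7th. Wild-type replicate 2 was the highest array for 8 of 9 genes, and Krt5 was highest on Rarb-null replicate 1. Wild-type replicate 3 was lowest for 4 genes, Rarb-null replicate 3 for 3 and wild-type replicate 1 for 2.

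The luminal and basal classes were set against each other as means of 4 genes, each gene centred on its own mean over the 6 arrays. The luminal mean was 0.04, 0.34 and -0.04 log2 on Rarb-null and -0.39, 0.44 and -0.39 log2 on wild-type arrays. The basal mean was 0.40, 0.41 and -0.61 log2 on Rarb-null and -0.11, 0.63 and -0.71 log2 on wild-type arrays. Both classes were high on Rarb-null replicate 2 and wild-type replicate 2 and low on wild-type replicate 3. They parted most on Rarb-null replicate 3, where the basal mean was low and the luminal mean near its average. On Rarb-null replicate 1 the basal mean was high beside a luminal mean near its average, and on wild-type replicate 1 the luminal mean was also the lower of the pair.

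Luminal minus basal, the values were -0.36, -0.07 and 0.57 log2 on Rarb-null and -0.28, -0.19 and 0.32 log2 on wild-type arrays. The value was above 0 on replicate 3 of each genotype and below 0 on the other 4 arrays. It averaged 0.05 ± 0.47 log2 on Rarb-null arrays and -0.05 ± 0.32 log2 on wild-type arrays (SD, n = 3 each), 0.09 log2 apart. The luminal mean alone differed by 0.22 log2 and the basal mean by 0.13 log2. No p is given for these means, since the genes were chosen with results of these arrays known. The sign of the basal difference turned when Rarb-null replicate 1 (-0.04), Rarb-null replicate 2 (-0.04) or wild-type replicate 3 (-0.19) was left out. The sign of luminal minus basal turned on leaving out Rarb-null replicate 3 (-0.17), and likewise wild-type replicate 1 (-0.02).

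**Figure D3:**
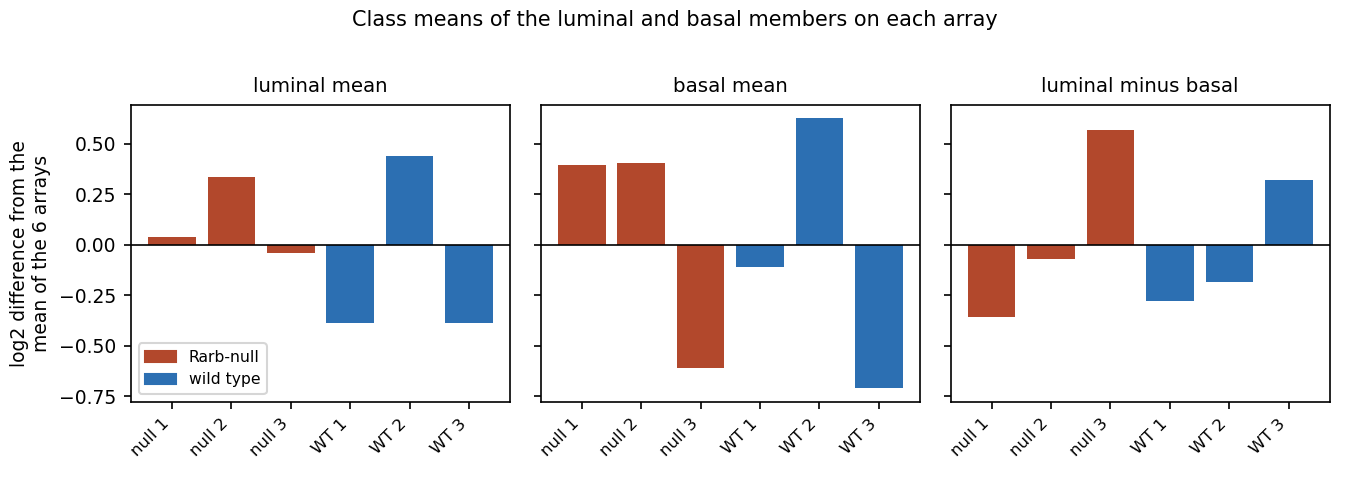
Luminal mean, basal mean and luminal minus basal on each array, in log2 units from the mean of the 6 arrays, with Rarb-null arrays in red and wild-type arrays in blue. The basal mean of Rarb-null replicate 3 is -0.61 where its luminal mean is -0.04.

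Likeness between 2 genes was measured as the root-mean-square distance between their centred values over the 6 arrays, so 0 means the same pattern. The closest pair was Krt8 and Krt19, at 0.07 log2, followed by the basal pair Krt5 and Krt14, at 0.14. Krt8 and Krt18 were 0.23 apart and Krt7 and Krt18 0.25. The 6 luminal pairs had a median distance of 0.27, the 6 basal pairs 0.42 and the 16 pairs of a luminal with a basal gene 0.44. The classes were not cleanly separate, since Krt7 lay nearer to Krt14 (0.27) than to Krt8 (0.33), and Trp63 was 0.74 from Krt17. Krt15 was at least 0.83 from every other member, and its nearest was Trp63. All of these profiles share the same 6 arrays, and a gene of wide range is far from a steady gene for that reason alone.

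**Figure D4:**
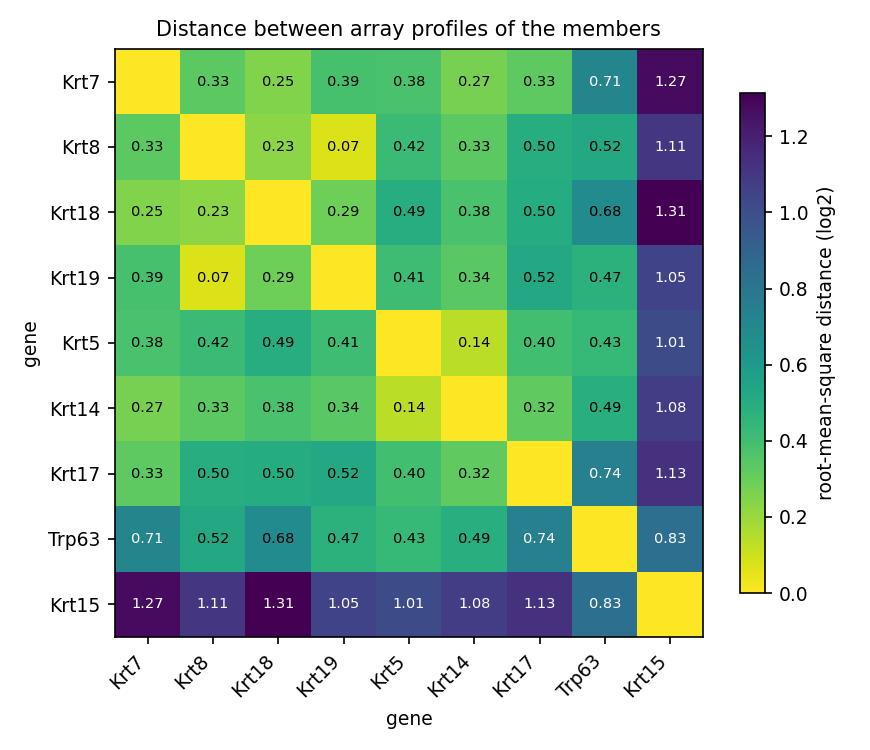
Root-mean-square distance in log2 units between the centred array profiles of each pair of genes, from dark for unlike to light for alike. Krt8 with Krt19 (0.07) and Krt5 with Krt14 (0.14) are the lightest pairs, and Krt15 is dark throughout.

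Outside the members, the gene nearest to the luminal mean was Pgap1, at 0.04 log2, followed by Smox (0.08), the plexin gene Plxnb2 (0.08), Bambi (0.09) and the tetraspanin gene Cd9 (0.09). Nearest to the basal mean were the nucleophosmin gene Npm1 (0.09), Zranb3 (0.09), Perp (0.10), Rfc3 (0.11) and Usp1 (0.11). Perp, a desmosomal protein gene known as a p63 target, read 10.36, 10.25 and 9.41 on Rarb-null and 9.97, 10.75 and 9.39 on wild-type arrays. Over 6 arrays and 20519 genes some profiles fall this close in any case, so the names are a description.

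Of 24 luminal epithelial genes that are not keratins, 19 averaged higher and 5 lower on Rarb-null arrays (median difference 0.30 log2), where 47.1% of all genes had a higher mean and the median was -0.01. In limma 0 of the 24 had an adjusted p under 0.05, and 2 an unadjusted p under 0.05, against 5.30% of all genes. The list mean was 0.13, 0.23 and 0.01 log2 on Rarb-null and -0.22, 0.40 and -0.54 log2 on wild-type arrays. Of the 14 lists compared, this one was nearest to the luminal Krt8, Krt18 and Krt19, but also to the basal Krt5 (0.35 log2) and Trp63 (0.54), while the luminal Krt7 had it only in place 8 (0.24). The genes with the smallest p were the claudin gene Cldn4, at -0.69 log2, and the oestrogen receptor gene Esr1, at 0.30 log2, both with an adjusted p of 0.908 in limma.

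Basal and myoepithelial genes outside the keratins were split, with 10 of 20 higher and 10 lower and a median of -0.01 log2. The actin-binding gene Tagln, among those with the smallest p, differed by -0.29 log2, and 0 passed. Of the 20 genes for desmosome and hemidesmosome proteins, which anchor keratin filaments at the cell border, 10 were higher and 10 lower and 0 passed. Pkp2, a plakophilin gene of desmosomes, read 8.77, 9.19 and 8.59 on Rarb-null and 9.68, 9.45 and 10.30 on wild-type arrays. These groups did not overlap, which held for 1 of the 20 genes of this list and for 10.6% of all genes. The Pkp2 difference was -0.96 log2 (95% interval -1.54 to -0.37), and the adjusted p was 0.908 in limma. Of 15 partners and textbook targets of p63, 8 were higher and 7 lower with a median of 0.02 log2. The related gene Trp73 differed by -0.24 log2 and the cell cycle inhibitor gene Cdkn1a by -0.81 log2, and 0 passed. These lists overlap, with 9 desmosome and 11 basal genes also held by another list.

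Keratins outside the 9 were mostly dim. Of 16 measured, 9 had a mean under 6, and 4 were higher and 12 lower on Rarb-null arrays, with a median of -0.08 log2 and 0 that passed. The brightest were Krt10, a keratin of differentiating epidermis, and Krt79. Krt10 averaged 8.14 ± 0.23 on Rarb-null arrays and 8.58 ± 0.24 on wild-type arrays (SD, n = 3 each), with overlapping groups, and Krt79 differed by -0.64 log2. Krt16 was the only one of these 16 whose groups did not overlap, as at 10.6% of all genes, at 5.30 to 5.32 on Rarb-null and 5.39 to 5.56 on wild-type arrays, with an adjusted p of 0.908 in limma.

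Other tissues that carry the same keratins were read beside them. Of 21 measured genes of epidermis and hair follicle, 9 had a mean under 6, 7 were higher and 14 lower, and 0 passed. The groups did not overlap at 4 of the 21, against 10.6% of all genes. The list mean stayed between -0.09 and 0.04 log2 on Rarb-null and between -0.10 and 0.16 log2 on wild-type arrays. The basal mean, which includes Trp63, had a range of 1.34 log2. Sbsn was the brightest gene of the epidermis list, at 10.77 to 11.04 on Rarb-null and 10.75 to 11.28 on wild-type arrays. Ivl had the smallest p of that list, with a difference of -0.37 log2. For mesothelium, the lining that also makes Krt8, Krt18 and Krt19, 5 of 9 genes had a mean under 6, 4 were higher and 5 lower. Its marker Msln read 5.22 to 5.39 on Rarb-null and 5.36 to 5.82 on wild-type arrays, and Bnc1 differed by 0.29 log2. Of 9 salivary gland genes, 5 were higher and 4 lower, 6 had a mean under 6, and the brightest, Amy1, which adipose tissue and liver can also express, read 13.41 or more everywhere. Aqp5, a water channel gene, differed by 0.52 log2 and Bhlha15 by 0.20.

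Several other gene groups moved with the arrays, and their part in the keratin values was not tested. All 17 measured proliferation genes averaged higher on Rarb-null arrays (median 0.61 log2), and 0 passed. Their mean was 1.26, 1.27 and -1.50 log2 on Rarb-null and -1.11, 1.34 and -1.26 log2 on wild-type arrays, the same high and low arrays as Krt15. The basal mean, Krt5, Krt14 and Trp63 were also above and below their averages on the same arrays. So were the luminal mean, Krt7, Krt19 and the desmosome mean, so these signs were not confined to basal genes. The luminal mean was near 0 on Rarb-null replicates 1 and 3, at 0.04 and -0.04. The signs of the basal Krt17 and of the luminal Krt8 and Krt18 departed from this order. The basal mean, Krt5, Krt14 and Trp63 ranged over 1.34, 1.27, 1.02 and 2.35 log2, against 3.45 for Krt15 and 2.85 for the proliferation mean. Distance depends on range as well as pattern, so it sets Krt15 apart partly by its range. Krt15 lay 0.26 log2 from the proliferation profile and 1.01 or more from each of the 7 other keratins. Mcm3 and Ccna2 led this list by p, at 0.63 and 1.11 log2. Of the other members, none lay nearer to the proliferation profile than Trp63, at 0.70.

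Milk protein genes, a product of luminal secretory cells, were higher on Rarb-null arrays in 7 of 8 cases with a median of 0.73 log2, and 0 passed. Their list mean was 0.50, -0.22 and 1.27 log2 on Rarb-null and 0.20, 0.46 and -2.21 log2 on wild-type arrays. The beta-casein gene Csn2 read 14.53, 14.12 and 14.65 on Rarb-null and 13.90, 14.34 and 7.63 on wild-type arrays, and Csn1s2a was likewise lowest on wild-type replicate 3. That array was also lowest for Krt5, Krt14, Krt18 and Trp63. For Krt5 and Krt14 the gap was small, at 9.41 and 9.61 against 9.41 and 9.64 on Rarb-null replicate 3. On wild-type replicate 3 Krt8 was at 11.71 and Krt19 at 11.42, 0.07 and 0.02 log2 above wild-type replicate 1.

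Skeletal muscle genes stood highest on wild-type replicate 2, the array with the highest keratin values. Their mean was -0.99, -0.32 and 0.93 log2 on Rarb-null and -0.68, 2.35 and -1.29 log2 on wild-type arrays, with 2 of 12 higher, a median of -0.26 log2 and 0 that passed. Mb and Tnni2 had the smallest p, with differences of -0.22 and -0.59 log2. Adipocyte genes averaged lower on Rarb-null arrays in 10 of 11 cases with a median of -0.15 log2 and 0 that passed. Their mean was -0.17, -0.03 and -0.08 log2 on Rarb-null and 0.30, -0.28 and 0.26 log2 on wild-type arrays, so wild-type replicates 1 and 3, low for luminal keratins, were highest, and wild-type replicate 2 was lowest. Lep, the leptin gene, differed by -0.74 log2 and Fabp4 by -0.26 log2. Fibroblast genes were higher in 8 of 12 cases with a median of 0.07 log2, with Dpt at -0.27 and Fn1 at 0.63 log2, and 0 passed. Lymphocyte genes were split, 5 and 5, with Cd79a at -0.21 and Cd79b at -0.13 log2, and 0 passed.

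**Figure D5:**
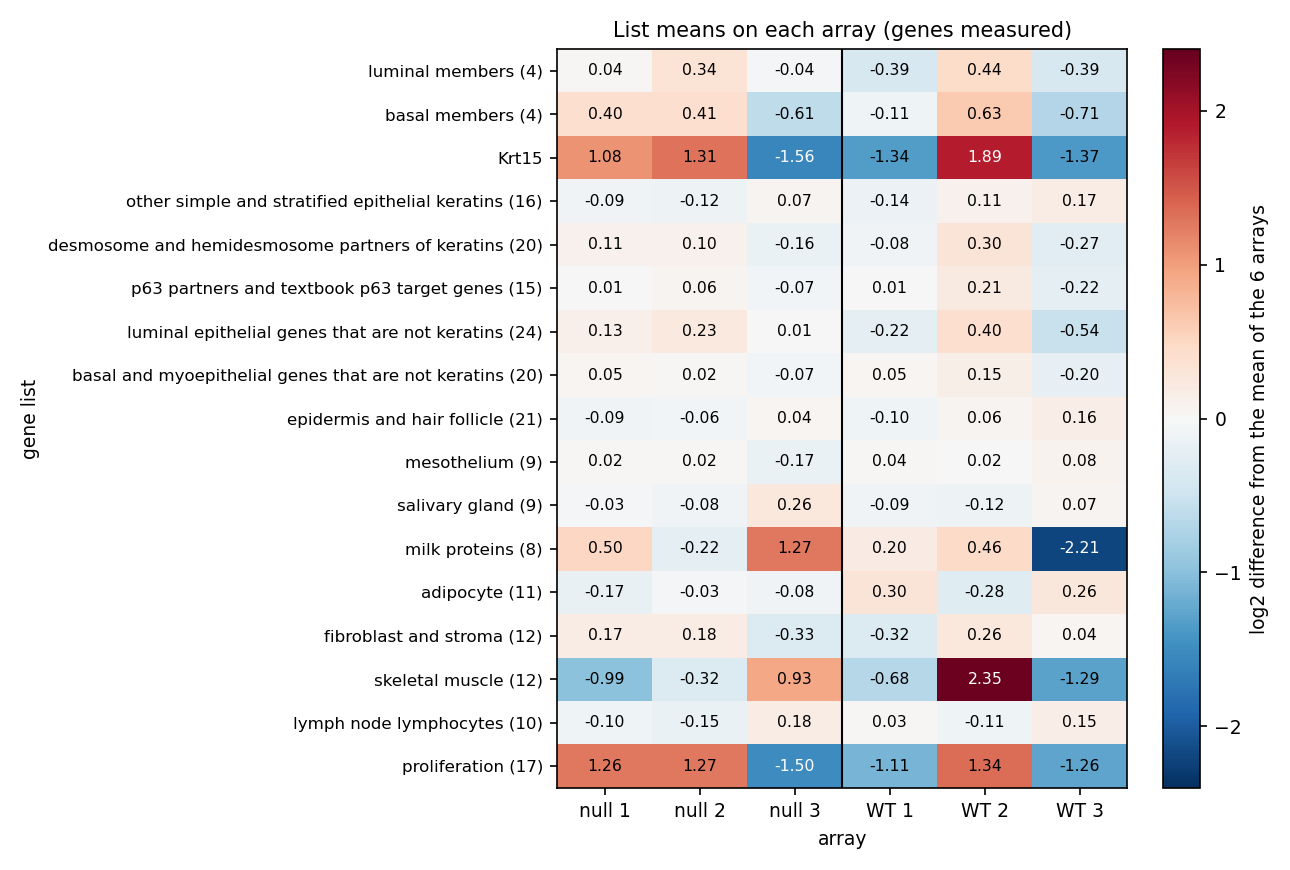
Mean of each gene list on each array in log2 units from the mean of the 6 arrays (red high, blue low), with Rarb-null arrays to the left of the line and the number of measured genes in brackets. Krt15 and the means of the basal, luminal, desmosome and proliferation lists lie above and below 0 on the same arrays. The luminal mean is near 0 on Rarb-null replicates 1 and 3, at 0.04 and -0.04. The epidermis list stays between -0.10 and 0.16.

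In the authors' deposited table the p-value was 0.219 for Krt19, the smallest of the 15, and 0 of the 15 were under 0.05, against 5.44% of all probe sets. The authors' deposited table listed log2 fold changes of 0.67 for Trp63 and -0.38 for Krt17 at their brightest probe sets.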

How the data were processed

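The deposited log2 values were made by the authors with RMA (version not stated), as the submitters' processing notes record. RMA forces arrays to a common distribution and compresses differences of dim probe sets. The authors' deposited table adds group means and a log2 fold change. Its score, the SAM d-score, was made by the authors from the 2 groups, per the file headers, and was not used. Its p-value was deposited by the authors without a stated method. Labelled cRNA was made from 6 ug of total RNA, per the labels. No detection calls are given, and the number of arrays limits the precision.

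The 64 control probe sets were left out. Symbols were updated through RefSeq synonyms (GRCm38.p6) for 8412 of 40149 probe sets with 1 symbol; 1239 named several and 3649 none. Genotypes were compared with limma 3.58.1 (lmFit, eBayes) in R 4.3.3, with genotype as the only term. Tests were two-sided and adjusted by Benjamini-Hochberg over 45037 probe sets, and the fit was tested on simulated data. For lists, the brightest probe set of a gene was used, and counts and medians were described without a set test. The members and lists were chosen with earlier results of these data known. Named genes were all members, per list the 2 with the smallest p, the 2 brightest of lists of other cell types, the 5 nearest profiles for each class, and Rarb. One gene that this rule names is not reported here. No pair of the 6 arrays held identical values. Figures used Python 3.11.15 and matplotlib 3.10.9. The alternatives were leaving out each array, a replicate block, array weights, another variance prior, filters on dim probe sets, all probe sets of a gene, centring on the array median and a second quantile normalization.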

Additional observations from a re-analysis of the deposited data

How the results depend on the processing

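Among 187 values of member probe sets under the alternatives, 171 kept the sign of the difference and 0 passed an adjusted p of 0.05 in limma, the lowest being 0.294 for Krt19 without wild-type replicate 2. The 16 sign changes all came from leaving out 1 array. The ranges there were -0.19 to 0.49 log2 for Krt5, -0.19 to 0.038 for Krt7, -0.0006 to 1.63 for Krt15, -0.034 to 0.10 for Krt17 1420193_at and -0.21 to 0.024 for Trp63 1452027_a_at. For Krt14 they were -0.16 to 0.39 (1423935_x_at), -0.27 to 0.69 (1460347_at) and -0.14 to 0.061 (1455573_at). Those that kept their sign ran from 0.16 to 0.72 for Krt8, 0.25 to 0.85 for Krt19, 0.048 to 0.39 for Krt18, 0.10 to 1.28 for Trp63 and -0.71 to -0.01 for Krt17 at their brightest probe sets. The luminal difference ran from 0.08 to 0.50, the basal difference from -0.19 to 0.47 and luminal minus basal from -0.17 to 0.30 with 1 array left out. With all probe sets of a gene the basal difference was 0.05 and luminal minus basal 0.17. With array weights no sign changed, but the difference at the brightest probe set became 0.34 for Krt5, 0.24 for Krt14, 1.003 for Krt15, 0.073 for Krt18, -0.038 for Krt7 and -0.23 for Krt17, each over 1.5 times away from the value without weights. Over all probe sets, 0 to 1 passed with 1 array left out, the 1 without Rarb-null replicate 2. Unadjusted p was under 0.05 for 2351 probe sets, and for 1147 to 4418 with 1 array left out. The count was lowest without Rarb-null replicate 2, at 1307 on leaving out wild-type replicate 3, and highest on leaving out wild-type replicate 2. It was 1566 without the dimmest 40%, where fewer probe sets were tested. The 4 member probe sets with a mean under 6 gave no value under the filters on dim probe sets.

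Same-numbered arrays did not deviate together in every pair, with correlations of -0.20, 0.45 and 0.29. Rarb-null replicate 1 was nearest to wild-type replicate 2 (0.38), and Rarb-null replicate 3 to wild-type replicate 1 (0.32). With the replicate block 3418 probe sets had an unadjusted p under 0.05, 0 passed, and the lowest adjusted p of a member was 0.661.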

Other observations

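Rspo1, which encodes an R-spondin that amplifies Wnt signalling and is known from mouse mammary luminal cells, was among the 2 brightest genes of the mesothelium list. It read 8.63, 8.35 and 5.93 on Rarb-null arrays and 8.09, 9.01 and 6.66 on wild-type arrays, in replicate order. Replicate 3 was lowest in both genotypes, as for Krt5 and Krt14, and the difference was -0.28 log2 (95% interval -2.23 to 1.66, adjusted p = 0.986 in limma). The other bright gene of that list, Cldn15, read 8.71, 9.07 and 8.65 on Rarb-null and 9.14, 8.64 and 9.73 on wild-type arrays, and was highest where Trp63 was lowest.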
